A study of Arabidopsis thaliana with 9 samples.

Results

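The genes described are sks15 (AT4G37160) and sks16 (AT2G23630), members of the SKU5-similar family of Arabidopsis thaliana. They were the 2 genes taken because each was lower after 2 d on FPX and above its starting level after 8 d, and each had 1 probe set of its own. They are 2 of the 5941 genes that could be named in the table of 11228 tested probe sets. The samples were 9 Affymetrix arrays of whole wild-type seedlings. Seedlings grown on MS medium were 4 d old at transfer to MS medium with 45 µM FPX, a compound that the series title describes as an inducer of callus and of shoot regeneration, and were taken at 0 d (no FPX), at 2 d and at 8 d, with 3 arrays each. The question was which genes FPX affects. The treated seedlings were also older than those at 0 d, and raw data of the 0 d arrays also belong to another series, so treatment, age and array batch cannot be told apart in contrasts with 0 d. No untreated seedlings were taken at 2 d or 8 d, so time on FPX and age cannot be told apart between 8 d and 2 d. Whole seedlings were extracted, so fewer cells of a type and less RNA per cell cannot be told apart either.

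SKU5, the founder of the family, is a glycoprotein of the plasma membrane and cell wall with a lipid (GPI) anchor, and Arabidopsis sku5 mutants are known for roots that grow at a slant. The family belongs to the cupredoxin fold and resembles multicopper oxidases such as laccase and ascorbate oxidase, which pass electrons from a substrate to oxygen through bound copper. Several of its members are known from cell expansion in roots, and others from pollen.

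Signal of sks15 was 396, 362 and 415 on the 3 arrays at 0 d. After 2 d on FPX it was 84.9, 50.5 and 83.7, and after 8 d it was 1331, 987 and 1224. Every 2 d array lay below every 0 d array and every 8 d array above, with no overlap between the groups. The group means were 391 ± 26.8 (SD, n = 3) at 0 d, 73.1 ± 19.5 at 2 d and 1181 ± 176 at 8 d. On the log2(signal + 16) scale used for all changes here, sks15 was at −2.22 ± 0.16 (SE) at 2 d relative to 0 d, at 1.55 ± 0.16 at 8 d relative to 0 d, and at 3.76 ± 0.16 at 8 d relative to 2 d. In ratios of mean signal, 8 d stood at 3.02 times 0 d and at 16.2 times 2 d. These values chose the gene, so they are a description and carry no test.

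Signal of sks16 was 226, 152 and 179 on the 0 d arrays. It was 91.4, 63.8 and 81.8 after 2 d on FPX, and 232, 265 and 276 after 8 d. The 2 d arrays were clear of the others, while the lowest 8 d array was only 1.03 times the highest 0 d array. Mean signal was 186 ± 37.2 (SD, n = 3) at 0 d, 79.0 ± 14.0 at 2 d and 258 ± 23.2 at 8 d. The log2 difference was −1.08 ± 0.14 (SE) at 2 d relative to 0 d, 0.45 ± 0.14 at 8 d relative to 0 d and 1.53 ± 0.14 at 8 d relative to 2 d. These values also chose the gene and carry no test.

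**Figure D1:**
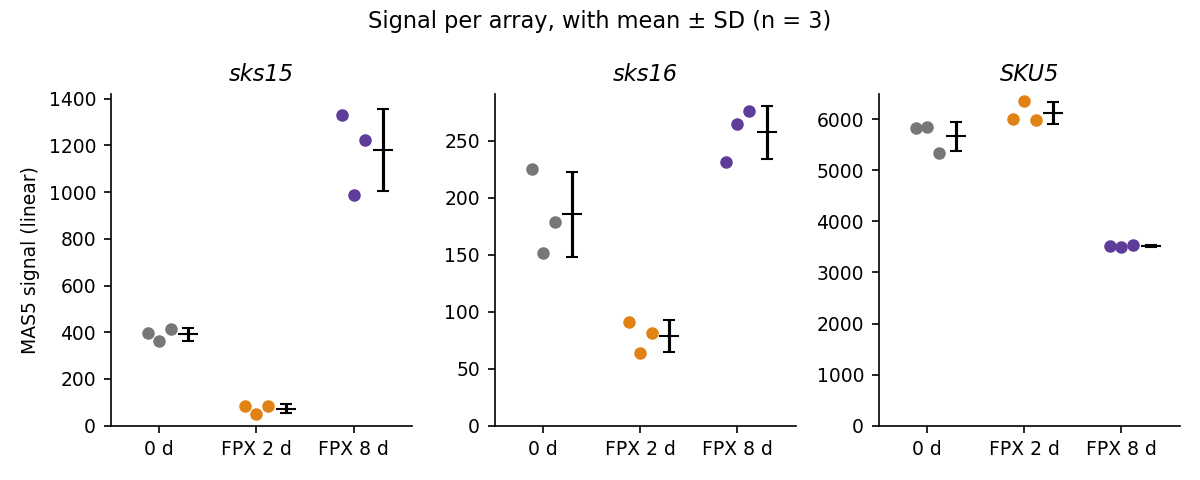
MAS5 signal (linear axis from 0) of sks15, sks16 and SKU5 on each array at 0 d, FPX 2 d and FPX 8 d; points are arrays and the black mark beside them is the mean ± SD (n = 3). The 2 d arrays are the lowest for sks15 and sks16, whereas the 3 arrays of SKU5 at 8 d lie between 3503 and 3545, below all its other arrays.

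The course had the same form in both genes and a larger amplitude in sks15. The log2 difference of sks15 minus that of sks16 was −1.14 for 2 d relative to 0 d, 1.09 for 8 d relative to 0 d and 2.23 for 8 d relative to 2 d. Among arrays of a group the genes differed from their group mean in part together. Replicate 2 was the lowest of the 2 d arrays in both, by 0.395 (sks15) and 0.24 (sks16) on the log2 scale. At 8 d they differed, since replicate 1 was the highest array for sks15 and the lowest for sks16.

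At 2 d both genes were near the bottom of the arrays. There sks15 stood at the 0.721 to 3.13 percentile of probe set signals and sks16 at the 1.54 to 3.68 percentile. The files were used without detection calls, so whether these signals exceeded background is unknown, and the sizes of the differences against 2 d depend on it. At 8 d sks15 stood at the 72.2 to 80 percentile, against 43.2 to 48 at 0 d, with no overlap. For sks16 the 8 d arrays stood at 19.8 to 25.7 and the 0 d arrays at 15.9 to 28.3, which overlapped.

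The level of sks16 at 8 d relative to 0 d therefore depended on how arrays were brought to a common level. Over all probe sets the median log2 change was 0.17 at 2 d, 0.36 at 8 d relative to 0 d and 0.15 at 8 d relative to 2 d. Relative to these medians, sks15 was at −2.38, 1.18 and 3.61 and sks16 at −1.25, 0.09 and 1.38. With array medians set equal, the median change of all probe sets was −0.01 at 2 d and 0.11 at 8 d. The 8 d difference of sks16 was then 0.21, and its lowest 8 d array was 0.228 (log2) below its highest 0 d array. After quantile normalization the difference was 0.08 and the groups again overlapped. With arrays scaled on the hybridization controls it was 0.69, with no overlap. In all 4 scalings the 8 d arrays of sks15 were above its 0 d arrays, and the 2 d arrays of both genes were below their 0 d arrays.

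**Figure D2:**
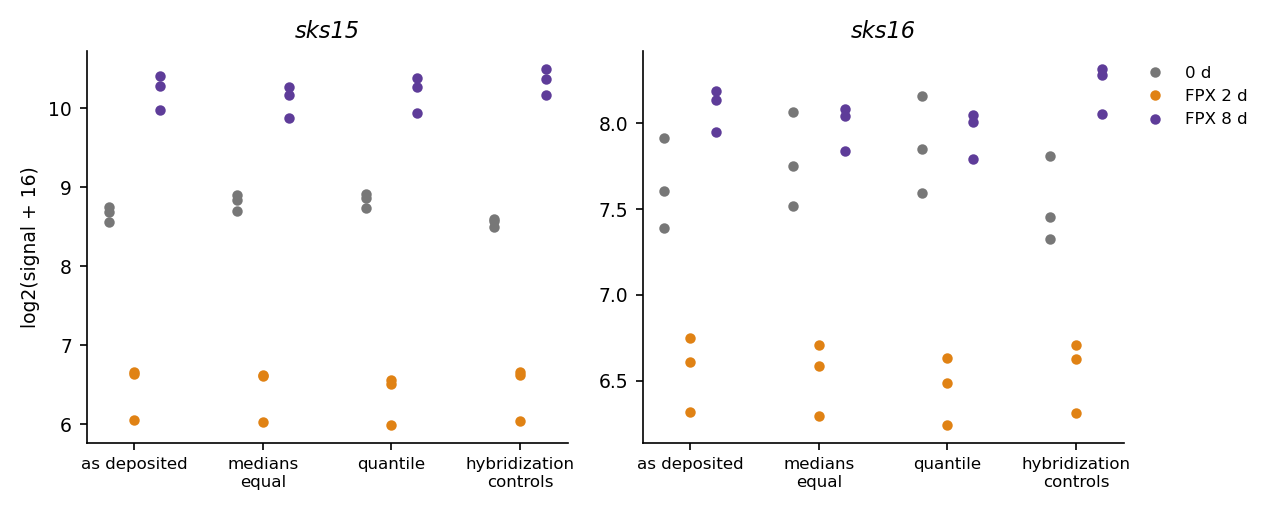
Values of log2(signal + 16) of sks15 (left) and sks16 (right) on each array under 4 scalings, with 0 d in grey, FPX 2 d in orange and FPX 8 d in purple; the vertical axes do not start at 0 and differ between panels. The 8 d points of sks16 overlap the 0 d points with medians set equal and after quantile normalization, and those of sks15 do not overlap in any of the 4.

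The table is itself a selection, since 11205 of its 11228 probe sets reached p below 0.04 when log2 values of the 3 groups were compared in one-way fits. Counts over it are therefore not shares of the genome, and a list member with alike levels at all times would be missing from it. A list member could also sit among the 5025 tested probe sets with no gene listed or the 222 with several genes. Nearly every probe set here already differed among groups on these same arrays, so a pass in some contrast was nearly fixed in advance. All 12 measured genes of the lists other than the family passed in at least 1 contrast. The adjusted p-values given for single genes are conditional on this selection, which the adjustment does not take into account. Within groups, pairs of arrays had r = 0.987 to 0.991. The hybridization controls differed by −0.105 at 2 d and −0.247 at 8 d relative to 0 d, and the poly(A) controls by −0.365 and −0.568 (mean log2 values). In limma with Benjamini-Hochberg adjustment, 8160 probe sets (72.7%) changed at 2 d, 61.3% of them up (46.4% with array medians set equal, 51% after quantile normalization and 70% with scaling on hybridization controls), 10217 (91%) changed at 8 d relative to 0 d, and 8534 (76%) at 8 d relative to 2 d, with 43.9% of all probe sets up in that contrast.

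A change down at 2 d and up at 8 d, both relative to 0 d and both past an adjusted p of 0.05 in limma, was made by 283 of 11228 probe sets (2.52%). Arrays ordered without overlap, 2 d below 0 d below 8 d, were found in 364 probe sets (3.24%). Both SKU5-similar genes were in each set, since the pattern was the rule by which they were chosen. Other orders without overlap were not counted over all probe sets. Where such an order is given for another gene, it is a description of that gene alone. Within the 283, the median log2 change was −0.43 at 2 d and 0.56 at 8 d, both relative to 0 d. By size of the negative difference at 2 d sks15 ranked 6 and sks16 ranked 32 of the 283, and by the difference of 8 d minus 0 d they ranked 30 and 178. Of the 283, 153 belonged to 1 gene and 20 of those had a symbol beyond a locus code. By the difference of 8 d minus 2 d, which rests on the dim 2 d signals, sks15 ranked 15 and sks16 ranked 71 of the 283 (21 and 242 of all 11228).

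This set held 20 genes with a symbol, sks15 and sks16 included. Only some of the others are given here, picked after their values were seen, so they show no theme of the set. Of these UGT73B4, a glycosyltransferase, had mean signals of 366, 202 and 1619.9 at 0, 2 and 8 d. ATGSTF13 had 117, 43.6 and 309.6, and GSTU26 had 738, 301 and 1716. Both are glutathione transferases, which couple glutathione to reactive compounds. The expansin gene EXPA9, of a family that loosens the wall, had 1043, 754 and 2032. Log2 changes of EXPA9 were −0.47 at 2 d and 0.95 at 8 d, smaller than those of sks15 at both times. The sugar transporter gene SWEET1 had 877, 542 and 1592. These genes were picked by the pattern, and the shared direction is not a result about them.

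**Figure D3:**
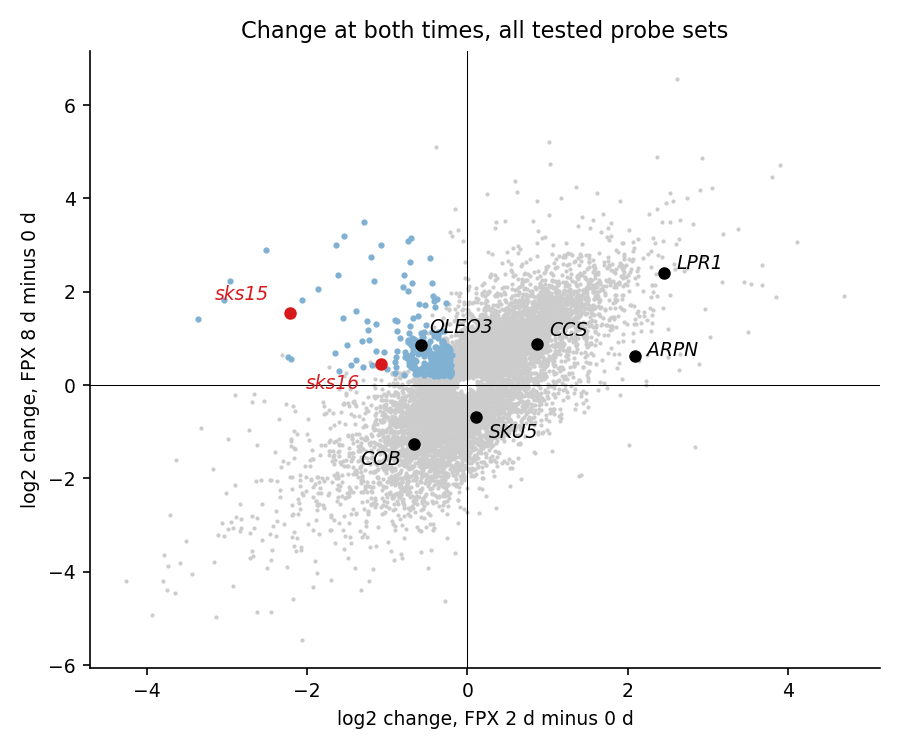
Log2 change at FPX 2 d minus 0 d (horizontal) against FPX 8 d minus 0 d (vertical) for all 11228 tested probe sets in grey, with the 283 that passed as down at 2 d and up at 8 d in blue. The SKU5-similar genes (red) lie in the upper left, sks15 at −2.22 and 1.55 and sks16 at −1.08 and 0.45, while SKU5 and COB lie below 0 at 8 d and LPR1, ARPN and CCS lie in the upper right.

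The genes most like each were found by Pearson's r of log2(signal + 16) over the 9 arrays, among 5980 other probe sets of 1 gene. The arrays fall into 3 groups, so r mostly reflects the 3 group means, and it is given as a description. Between sks15 and sks16 r was 0.966, which placed sks16 at rank 29 in likeness to sks15 and sks15 at rank 6 in likeness to sks16. An r above 0.95 was reached by 57 probe sets with sks15 and by 24 with sks16.

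Nearest to sks15 was AT5G10130 (r = 0.996), with mean signals of 897, 373 and 1761 at 0, 2 and 8 d. AT1G52070 (r = 0.991) had 2319, 571 and 8286, and its log2 changes of −2.07 at 2 d and 1.83 at 8 d were close in size to those of sks15. AT5G05890 (r = 0.988), AT1G52060 (0.985) and GSTU26 (0.983) followed. AT1G52060 and AT1G52070 are consecutive in the RefSeq gene table. AT1G52060 had mean signals of 1451, 129 and 3879.5. Its log2 difference was the larger of the pair at 2 d (−3.36) and the smaller at 8 d relative to 0 d (1.41). All 5 of these genes were among the 283.

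Nearest to sks16 was AT3G28690 (r = 0.981), followed by AT3G50880 (0.979), AT1G52060 (0.973), AT5G05890 (0.970) and AT3G60450 (0.969). AT1G52060 and AT5G05890 were thus among the 5 nearest of both. Amplitudes near sks16 were mostly small. At 8 d relative to 0 d AT3G50880 was at 0.09 and AT3G60450 at 0.05, and those 2 were not among the 283.

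**Figure D4:**
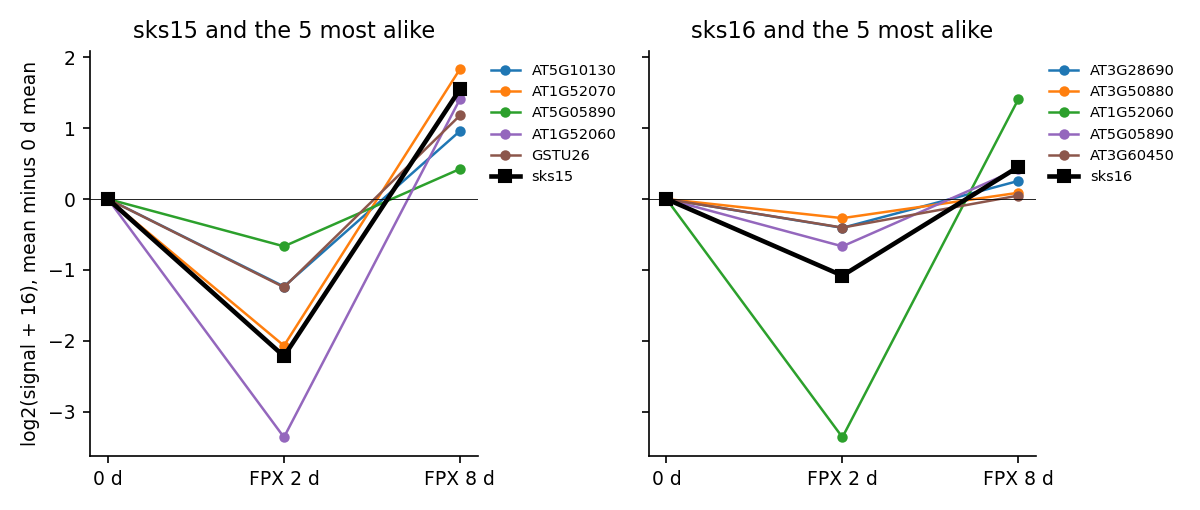
Mean log2(signal + 16) minus the 0 d mean at 0 d, FPX 2 d and FPX 8 d for sks15 (left, black) and sks16 (right, black) with the 5 genes of highest Pearson's r to each (coloured). All lines dip at 2 d; near sks15 they end between 0.42 and 1.83 at 8 d, and near sks16 3 of the 5 end under 0.26.

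Within the family the third measured gene, SKU5 itself, took another course. Of 19 family genes listed by locus, 3 had a probe set of 1 gene in the table, and the other 16 were not analysed here. SKU5 (AT4G12420) had signals of 5823, 5845.5 and 5339 at 0 d, 6007, 6362 and 5979 at 2 d, and 3519.6, 3503 and 3545 at 8 d. The 8 d arrays were below all others, and the 2 d arrays were all above the 0 d arrays by a small margin. At 2 d relative to 0 d the log2 change was 0.11 ± 0.08 (SE, limma adjusted p = 0.218), which did not pass, though it did after quantile normalization (0.26, adjusted p = 0.0106). SKU5 fell at 8 d, by 0.68 relative to 0 d (SE 0.08, limma adjusted p = 5.93e-06) and by 0.79 relative to 2 d (adjusted p = 3.93e-06 in limma). Over all probe sets 36.1% were called down at 8 d relative to 0 d and 32.1% down at 8 d relative to 2 d. The direction at 8 d was thus down in SKU5, while sks15 and, as deposited, sks16 were above 0 d, and the difference between the genes was not tested because the values of sks15 and sks16 chose them.

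Among measured relatives and copper proteins LPR1, AT5G21100, AT5G21105, ARPN and CCS rose at 2 d, when the SKU5-similar genes were low. SKU5 and AT4G39830 did not pass at 2 d. In the list of laccases, ascorbate oxidases and LPR genes 4 of 22 were measured. Of these 3 rose at 2 d and 0 fell (median 1.02 against 0.17 over all probe sets, of which 44.6% rose and 28.1% fell). LPR1 (AT1G23010), a multicopper oxidase of the root response to low phosphate, had signals of 71.6, 43.1 and 52.3 at 0 d, 389.9, 349 and 371 at 2 d and 373, 327 and 382 at 8 d. It rose by 2.45 ± 0.13 (SE) at 2 d (limma adjusted p = 6.49e-08) and 2.41 at 8 d (adjusted p = 1.37e-08 in limma). At 0 d LPR1 stood at the 0.445 to 3.54 percentile of its arrays, where background is unknown, and its 2 d change was 1.86 with a pseudocount of 64 and 2.74 with one of 1.

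The other 3 loci of that list are given by code, as the annotation used here has no name for them. AT5G21100 rose by 1.50 ± 0.17 at 2 d (limma adjusted p = 1.42e-05) and was at 0.23 at 8 d relative to 0 d (adjusted p = 0.213; 0.46 and a pass at 0.0291 with scaling on hybridization controls). From 2 d to 8 d it fell by 1.27, opposite in sign to the difference of sks15. AT5G21105 rose by 0.55 at 2 d and by 0.69 at 8 d, and AT4G39830 was at 0.17 at 2 d (adjusted p = 0.261) and rose by 0.57 at 8 d. At 8 d relative to 0 d 3 of these 4 genes rose, where 54.9% of all probe sets did.

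The plantacyanin gene ARPN (AT2G02850), for a small secreted blue copper protein, was the measured 1 of 23 phytocyanins. Its signals were 60.7, 58.3 and 73.8 at 0 d, 287.9, 295 and 395 at 2 d and 98.3, 128 and 99.9 at 8 d. It was highest at 2 d, the time at which sks15 and sks16 were lowest. At 0 d it too was dim, at the 1.56 to 3.56 percentile. ARPN rose by 2.08 ± 0.14 (SE) at 2 d (limma adjusted p = 2.51e-07) and by 0.63 at 8 d, both relative to 0 d, and fell by 1.45 at 8 d relative to 2 d (adjusted p = 2.83e-06). CCS (AT1G12520), the copper chaperone of superoxide dismutase, was the measured 1 of 28 genes of copper transport and use, and rose by 0.87 at 2 d and 0.87 at 8 d relative to 0 d. COB (AT5G60920) encodes a GPI-anchored wall protein that orients cellulose in growing roots, and was the measured 1 of 23 in its list. COB fell by 0.67 ± 0.09 at 2 d (limma adjusted p = 4.52e-05) and by 1.27 at 8 d relative to 0 d, so it did not return at 8 d.

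**Figure D5:**
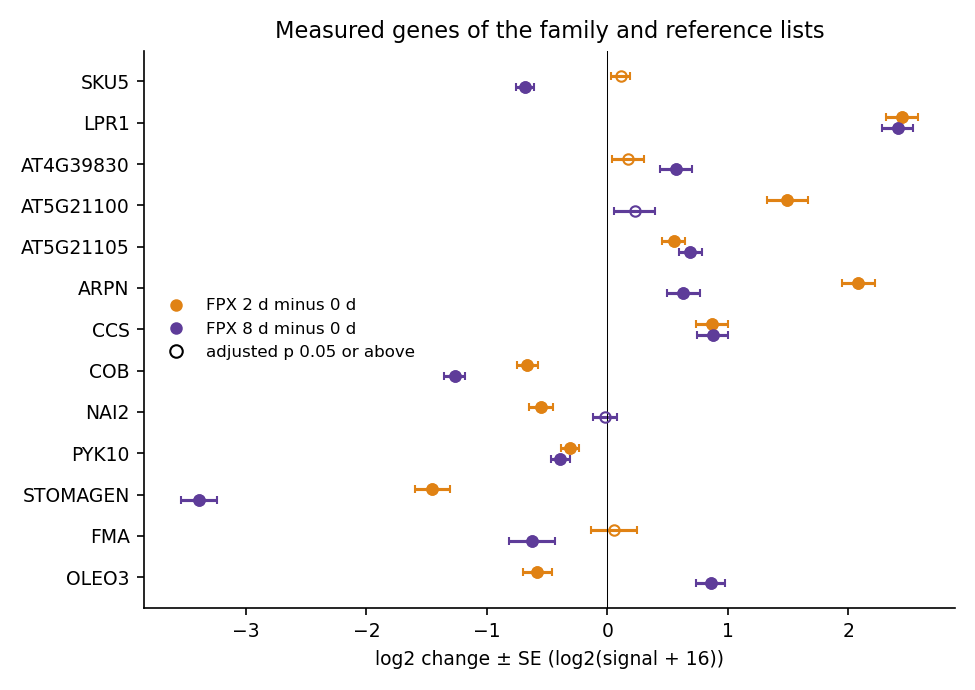
Log2 change ± SE (limma) at FPX 2 d minus 0 d (orange) and FPX 8 d minus 0 d (purple) for the measured genes of the family and the other lists; open points had an adjusted p of 0.05 or above. LPR1 and ARPN are above 2 at 2 d, STOMAGEN is at −3.39 at 8 d, and OLEO3 is below 0 at 2 d and above 0 at 8 d.

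Tissue markers changed in some contrasts, and several of these calls depended on the scaling. Of the root list 2 of 15 genes were measured, NAI2 and PYK10, both of the endoplasmic reticulum bodies that are abundant in roots, and the summed signal of the pair ranged from 17415 to 17631 in 0 d arrays, 13315 to 14281 in 2 d arrays and 13539 to 14710 in 8 d arrays. NAI2 had signals of 3768, 3714 and 4136 at 0 d, 2593, 2377 and 2956 at 2 d and 4069, 3769 and 3629 at 8 d. It fell by 0.55 at 2 d (limma adjusted p = 4.33e-04), rose by 0.53 at 8 d relative to 2 d (adjusted p = 4.84e-04), and was at −0.02 at 8 d relative to 0 d (adjusted p = 0.856; −0.28 and past the threshold with medians set equal, 0.26 and past it after quantile normalization). PYK10 fell by 0.31 at 2 d and 0.39 at 8 d, but was at −0.04 and 0.15 after quantile normalization and passed at neither time with scaling on hybridization controls (−0.20 and −0.14).

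Of the leaf and shoot list 2 of 8 were measured, with summed signals of 631 to 766 in 0 d arrays, 295 to 365 in 2 d arrays and 92.4 to 156 in 8 d arrays. STOMAGEN, a peptide gene that promotes stomata, fell by 1.45 at 2 d and 3.39 at 8 d relative to 0 d, with 8 d signals at or below the 0.917 percentile. FMA, a regulator of the last step of guard cell formation, was at 0.05 at 2 d (limma adjusted p = 0.804) and fell by 0.62 at 8 d (adjusted p = 0.00877, and 0.0771 with scaling on hybridization controls). The seed oil body gene OLEO3 (AT5G51210) was the measured 1 of 8 seed genes. It had signals of 60.3, 71.3 and 65.3 at 0 d, 32.1, 49.4 and 35.5 at 2 d and 124, 146 and 126 at 8 d. Its groups did not overlap, an order found in 3.24% of all probe sets. It took the course of sks15 and sks16, with a fall of 0.58 at 2 d (limma adjusted p = 0.00115) and a rise of 0.86 at 8 d (adjusted p = 3.17e-05). OLEO3 was dim throughout, at the 0.143 to 0.606 percentile at 2 d and 2.16 to 2.84 at 0 d, so both levels may be background. Its 2 d change was −0.33 with a pseudocount of 64 and −0.76 with one of 1. No marker of the pollen list (21 genes) or the xylem list (6 genes) had a probe set annotated to its locus alone. The part of tissue composition in the levels of sks15 and sks16 was not tested.

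Of the 12 protein-coding genes nearest to sks15 and sks16 in the RefSeq gene table (3 on each side of each), 2 were measured. Both lie near sks15 but not directly next to it, and the genes directly next to it were not measured. AT4G37190 rose by 0.87 ± 0.09 at 2 d (SE, limma adjusted p = 9.39e-06) and by 1.07 at 8 d relative to 0 d, with mean signals of 147, 281 and 324 at 0, 2 and 8 d. AT4G37180 was at −0.02 at 2 d (limma adjusted p = 0.878) and fell by 0.31 at 8 d relative to 0 d (adjusted p = 0.0123), which did not pass with scaling on hybridization controls (−0.06, adjusted p = 0.593). Neither took the course of sks15.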

How the data were processed

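Signal on 9 arrays was deposited by the authors as linear array intensity, made with MAS5 per the submitters' processing notes. Its version, the scaling between arrays and the rule that chose the probe sets are not given in the sources used here. Array by array, signal had a 75th percentile of 1046 to 1103. The number of arrays limits the precision, and since no label says that arrays came from separate cultures, p-values reflect the spread among these arrays alone, possibly technical.

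Of 11249 probe sets, 21 Affymetrix controls were left out. Platform annotation, with symbols updated by gene ID from the RefSeq table (TAIR10.1), gave 1 gene for 5981 probe sets (5962 matched by ID) and several for 222. The other 5025 tested probe sets were not listed in that annotation. No genome build is given for the files, so no coordinates are given. Values were tested as log2(signal + 16) with limma 3.58.1 in R 4.3.3, with 1 mean per group over the 9 arrays, two-sided, and Benjamini-Hochberg adjustment over all 11228 (threshold 0.05). The fit was tested on simulated data over 11228 probe sets, where 92, 91 and 91 of 100 changed 2-fold and 66, 68 and 62 of 100 changed 1.5-fold were recovered, with 6, 10 and 6 calls among unchanged ones, for 2 d minus 0 d, then 8 d minus 0 d, then 8 d minus 2 d. Far fewer probe sets were changed in the simulation than were called in the data, so these counts are not error rates for the data. Plots were drawn with Python 3.11.15 and matplotlib 3.10.9. The genes and the gene lists were chosen with earlier results of these data known. Named genes were sks15 and sks16, measured family members, up to 4 changed genes of each list, the 5 most alike to each, and measured neighbours. Alternatives were another pseudocount, other scalings, a filter on dim probe sets, each array left out, and a replicate block.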

Additional observations from a re-analysis of the deposited data

Results flagged for a closer look

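In sks15 and sks16 the arrays at both times moved in opposite directions from 0 d. The log2 difference relative to 0 d was −2.22 at 2 d and 1.55 at 8 d in sks15, and −1.08 at 2 d and 0.45 at 8 d in sks16. As deposited, all 3 arrays of each time lay on that side of all 0 d arrays. For sks16 at 8 d the arrays overlapped those at 0 d with array medians set equal (a difference of 0.21) and after quantile normalization (0.08). The difference between the times was not tested, since it chose the genes.

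In other named genes the level at 8 d differed from that at 2 d by the limma contrast of these times. The adjusted p was under the threshold of 0.05. The log2 change of 8 d minus 2 d was −0.79 in SKU5, −0.60 in COB, −1.45 in ARPN and −1.27 in AT5G21100. It was 0.40 in AT4G39830, where the call ended without FPX 2 d replicate 1 (adjusted p = 0.0759), FPX 2 d replicate 3 (0.0507) or FPX 8 d replicate 3 (0.0582). Among tissue markers it was 0.53 in NAI2, −1.94 in STOMAGEN, −0.68 in FMA and 1.44 in OLEO3. Near sks15, AT4G37180 was at −0.29. That call ended without FPX 2 d replicate 2 or 3, without FPX 8 d replicate 2 or 3, and with scaling on hybridization controls. Its limma adjusted p ran from 0.00346 to 0.226 over its alternatives.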

How the results depend on the processing

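Signs of the sks15 differences were kept in 16 of 16 alternatives and those of sks16 in 15 of 15, since sks16 was among the 2807 probe sets left out by the filter on dim signals. With a pseudocount of 64 the difference at 2 d relative to 0 d was −1.74 in sks15 and −0.80 in sks16, and at 8 d relative to 2 d it was 3.18 and 1.17, as the larger pseudocount shrinks differences of dim signals. At 8 d relative to 0 d sks15 was at 1.29 with array medians set equal and at 1.79 with scaling on hybridization controls. After quantile normalization sks16 was at −1.41 at 2 d and 0.0816 at 8 d relative to 0 d, and at 8 d relative to 0 d NAI2 was at 0.26 and PYK10 at 0.15, both with the sign turned.

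Leaving out each array in turn gave −2.32 to −2.02, 1.46 to 1.67 and 3.57 to 3.88 for sks15 (2 d minus 0 d, then 8 d minus 0 d, then 8 d minus 2 d), and −1.20 to −0.94, 0.33 to 0.59 and 1.41 to 1.63 for sks16. The count of changed probe sets was 7496 to 8197, 9969 to 10209 and 7919 to 8586 for these contrasts, and that of probe sets down at 2 d and up at 8 d was 223 to 280. The latter was 350 after quantile normalization.

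The labels number the arrays but do not pair them. Deviations of same-numbered arrays from their group means correlated at −0.0914 to 0.106 over 9 pairs, and 5 of 9 arrays correlated best with their own number. Pairs with different numbers had a similar range, −0.0928 to 0.109. Whether 5 of 9 is more than unpaired arrays would give was not tested. With the replicate number as a block, 8115, 10191 and 8507 probe sets changed and 280 were down at 2 d and up at 8 d, and the differences of sks15 and sks16 were the same (−2.22 and −1.08 at 2 d). No detection call was used, so the differences against the dim 2 d signals of sks15 and sks16 carry an unknown background.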
